A study of Oryctolagus cuniculus with 12 samples.

Results

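Potassium channel genes were described in the jaw joint (temporomandibular joint) of the rabbit, and were taken as the genes whose deposited symbol starts with KCN. There were 37 of them among the 14621 genes of the count table: 16 voltage-gated pore genes, 6 inward rectifiers, 2 two-pore channels, 5 calcium- or sodium-activated channels and 8 auxiliary subunits or regulators. All 37 were tested. KCNH1 and KCNK4, which had a symbol only through their Entrez identifier, were not counted. RNA was sequenced from 4 groups of 3 libraries, each labelled WT (wild type), from rabbits whose strain, age and sex the labels do not give. They were the condylar cartilage and the superficial zone, the fibrous layer over it at the joint surface, each from osteoarthritis (OA) and from control joints. OA was induced by surgery that removed a 2.5 mm punch of tissue from the posterior and lateral disc. Not given in the labels are any operation on control joints, the time between surgery and collection, and whether 1 animal gave both zones. In each OA group, 1 pair of libraries was nearly the same (2 and 3 in the superficial zone, 1 and 2 in the condylar cartilage): their biological coefficients of variation were 0.0417 and 0.0591, and all other within-group pairs had 0.211 to 0.622. Such a pair was summed and counted as 1 sample, which left n = 2 in each OA group and n = 3 in each control group.

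Potassium channels let potassium leave or enter the cell and so set the resting membrane potential. Voltage-gated channels open when the membrane is depolarised, inward rectifiers and two-pore channels hold the resting potential, and calcium-activated channels couple it to calcium signals, while auxiliary subunits change the gating or the surface level of the pores. In chondrocytes, potassium channels are known for their part in volume regulation and in the response to load and osmotic change. KCNA1 encodes Kv1.1, best known from axons and from the human disorder episodic ataxia, and it forms tetramers with the other Kv1 subunits KCNA2 and KCNA6 and binds the cytosolic beta subunits KCNAB1 and KCNAB2.

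Library totals ranged from 7326255 to 16769536 counts. In 2 libraries the cell type markers went against their group. OA superficial zone 1 had 77364 CPM (counts scaled to library size) summed over 8 chondrocyte markers, against 5790 and 5877 CPM in its partners. Control condylar cartilage 3 had 4151 CPM of these markers, against 68116 and 90241 CPM in its partners, and 1841 CPM over 6 skeletal muscle markers, against 14.1 and 5.495 CPM. The near-duplicates 2 and 3 of the OA superficial zone also carried muscle markers, at 1329 and 1312 CPM, against 177 CPM in library 1 and at most 134 CPM in the control superficial zone. The neutrophil and marrow markers summed to 398 to 1298 CPM in the OA condylar cartilage and 0.733 to 9.21 CPM in the control condylar cartilage. These are bulk samples, so fewer cells of a type and less RNA per cell cannot be told apart.

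KCNA1 set the control superficial zone apart from the other groups: it was at 7.02 to 11.1 CPM in its 3 libraries and at 0 to 0.513 CPM in the 9 others. In the control joints it was 1 of 6 channel genes lower in the condylar cartilage than in the superficial zone (4.27% of the 14438 genes tested were lower), beside 1 that was higher (3.22%), the BK beta subunit KCNMB1. Between OA and control 1 channel gene passed the test, the auxiliary subunit KCNE4, which rose in the OA condylar cartilage (0.817% of all genes rose there and 0.0485% fell). In the OA superficial zone KCNA1 and KCNH5 had the lowest log2 fold changes, and neither passed.

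Levels between genes are given as deposited TPM, which is scaled by transcript length. KCNMA1, the pore of the large-conductance calcium-activated channel BK, had the highest mean over the 10 samples, at 109 TPM. KCNA6 followed at 32.5 TPM and KCNQ1 at 29.7 TPM, and these 3 genes made up 46.2% of the summed TPM of all 37. Next were the Kv beta subunit KCNAB2 at 27.8 TPM and KCNRG, a soluble regulator of Kv assembly, at 22.6 TPM. Of the 37 genes, 10 averaged over 10 TPM and 23 under 5 TPM. KCNB2, a Kv2 delayed rectifier gene, was among the lowest at 0.488 TPM. The members summed to 331 to 348 TPM in the OA condylar cartilage, 410 to 439 TPM in the control condylar cartilage, 256 to 282 TPM in the OA superficial zone and 366 to 487 TPM in the control superficial zone. In each zone the OA libraries thus lay below the control libraries in summed TPM, which was not tested, since 3 genes carry much of the sum. In summed CPM the condylar cartilage groups stayed apart, at 1163 to 1293 CPM in OA and 1404 to 1980 CPM in control. The superficial zone groups overlapped in summed CPM, at 1702, 984 and 974 CPM in OA and 1801, 1308 and 1177 CPM in control. KCNQ1 holds the antisense transcript KCNQ1OT1 in human and mouse, and whether the counting used strand is not given in the sources used here, so reads from both could stand in the KCNQ1 value.

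**Figure D1:**
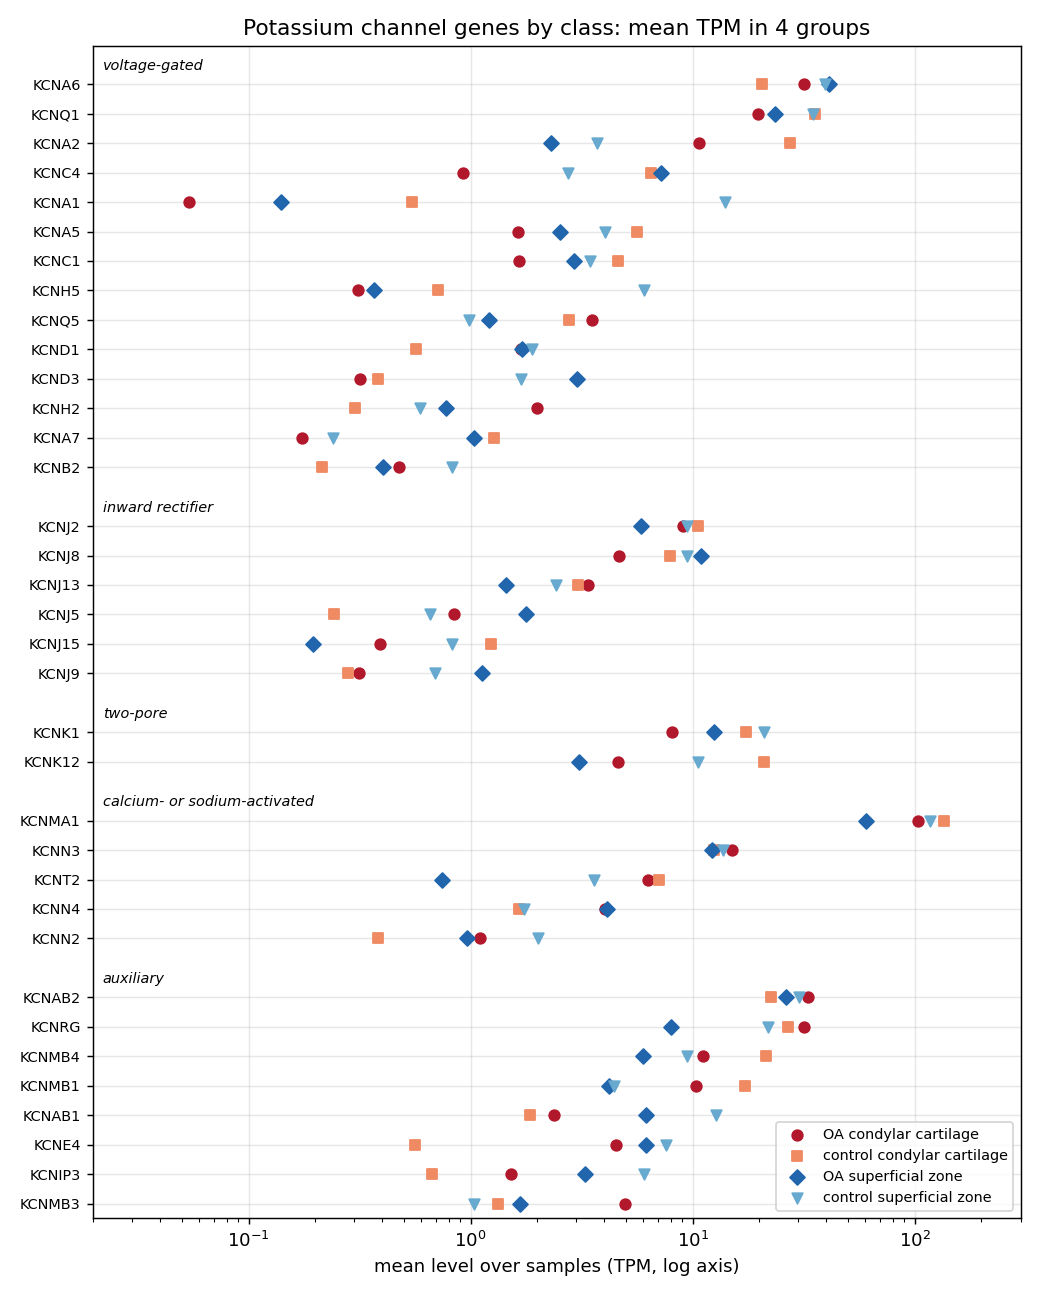
Mean deposited TPM (log axis) of 35 of the 37 potassium channel genes in the OA and control condylar cartilage and the OA and control superficial zone, grouped by class and ordered within a class by mean level. KCNMA1 is the highest gene at 109 TPM over all samples, and KCNA1 spans the widest range, with 14.0 TPM in the control superficial zone and 0.0538 to 0.542 TPM in the other groups.

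The Kv1 family is the Shaker-type group of voltage-gated channels, and 5 of its pore genes were measured. KCNA1 had 0, 6 and 1 counts in the 3 libraries of the OA superficial zone, against 63, 145 and 82 counts in the control superficial zone. These were 0, 0.350 and 0.0539 CPM in OA and 7.02, 11.1 and 8.60 CPM in control. The groups did not overlap, and each OA library lay below the lowest control library. Its log2 fold change was −5.89 ± 0.92 (SE), short of the threshold (edgeR adjusted p = 0.0633; 2.76e-07 to 0.964 over 21 alternatives). Over the 3 libraries the ratio of summed counts, scaled to library size, was 0.0178, with an exact 95% interval of 0.00707 to 0.037 that covers counting error only. In DESeq2 KCNA1 had an adjusted p of 2.76e-07, with 12 separate libraries 0.00643, and in a fit of the 2 superficial zone groups alone 0.0102. It also passed without control condylar cartilage 3 (0.0355) or OA superficial zone 2 (0.0321). In limma-voom with sample weights it was at 0.964. That value was also the highest over the alternatives for KCND3, KCNH5, KCNN4 and KCNRG in this comparison.

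In the condylar cartilage KCNA1 was near the limit of detection in both states, with 0, 0 and 1 counts in the OA libraries and 1, 7 and 3 counts in the control libraries. The ratio was 0.0521 with an exact 95% interval of 0.00121 to 0.359, counting error only, and the test across all genes was not passed (edgeR adjusted p = 0.242; 0.0798 to 0.499 over 20 alternatives). In control joints KCNA1 was at 0.327 ± 0.177 CPM in the condylar cartilage and 8.71 ± 2.01 CPM in the superficial zone (SD, n = 3 each), a log2 fold change of −4.61 ± 0.72 (edgeR adjusted p = 0.00312). That zone difference passed in all 21 alternatives, at 4.13e-08 to 0.0223. In OA joints the condylar cartilage had 1 count and the superficial zone 7, a ratio of 0.121 with an exact 95% interval of 0.00268 to 0.94 (counting error only). With the spread between samples taken in, that zone difference was not past the test (edgeR adjusted p = 0.23; 0.138 to 0.78 over 20 alternatives). The difference of the OA effect between zones was 2.28 ± 2.29 for KCNA1 and not past the test (edgeR adjusted p = 0.768; 0.611 to 1 over 20 alternatives).

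The other genes of the Kv1 complex overlapped between OA and control in the superficial zone. KCNA6, its neighbour in the gene order of the mOryCun1.1 assembly, was at 342, 109 and 113 CPM in the OA superficial zone and 232, 156 and 149 CPM in the control superficial zone. KCNAB1, the beta subunit gene, was at 2.76, 8.23 and 7.86 CPM in the OA superficial zone and 9.47, 6.42 and 10.1 CPM in the control superficial zone, so that only OA library 1 lay below the controls. KCNAB2 was at 46.2, 17.6 and 15.1 CPM in OA and 27.9, 26.7 and 16.7 CPM in control. KCNAB1 shared the zone difference of KCNA1 in control joints, at 1.15 ± 0.239 CPM in the condylar cartilage and 8.47 ± 1.91 CPM in the superficial zone, a log2 fold change of −2.84 ± 0.49 (edgeR adjusted p = 0.00518), and it passed in all 21 alternatives (1.17e-05 to 0.0334).

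KCNA1 is abundant in nerve, and the 8 nerve and Schwann cell markers summed to 235 to 253 CPM in the OA superficial zone and 205 to 306 CPM in the control superficial zone. Those ranges overlapped. MBP and NCAM1 made up most of that sum. The sums of other marker lists separated OA from control in this zone without overlap. The cell division markers were lower in OA, at 44.1 to 80.0 CPM against 193 to 247 CPM in control. Higher in OA were the endothelial markers (300.2 to 362 CPM, against 169 to 198 CPM in control), the macrophage markers (236 to 447 CPM, against 105 to 141 CPM), the adipocyte markers (122 to 153 CPM, against 63.4 to 71.5 CPM), the lymphocyte markers (9.70 to 15.7 CPM, against 2.79 to 6.61 CPM) and the neutrophil and marrow markers (8.05 to 133 CPM, against 1.34 to 3.98 CPM). VWF, KDR and ROBO4 were each higher in OA without overlap, while PECAM1, CDH5 and TEK overlapped. Of the macrophage markers CD68, MRC1 and CTSS overlapped and the others did not. Of the neutrophil and marrow markers S100A9 and CXCR2 overlapped and the others did not. LPL and CIDEC were higher without overlap, while ADIPOQ overlapped. PTPRC made up most of the lymphocyte sum. PTPRC and JCHAIN were higher without overlap, while CD79B and MS4A1 overlapped. The part of these cells in the KCNA1 result was not tested.

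KCNA2, another axonal Kv1 pore gene, differed widely between libraries of the same group. Values were 47.8, 49.9 and 46.7 CPM in the OA condylar cartilage and 169, 212 and 24.3 CPM in the control condylar cartilage. In the superficial zone it was at 29.5, 4.84 and 3.66 CPM in OA and 10.1, 2.06 and 36.3 CPM in control. Within the control condylar cartilage and within each superficial zone group, the library highest in chondrocyte markers was also highest in KCNA2. Across groups the order differed: OA superficial zone 1, second of the 12 in chondrocyte markers (77364 CPM), had less KCNA2 than the OA condylar cartilage libraries, whose markers summed to 21301 to 39114 CPM. Control condylar cartilage 3, lowest in these markers (4151 CPM), still had 24.3 CPM of KCNA2. The zone difference in control joints was 3.07 ± 1.03 on the log2 scale, with an edgeR adjusted p of 0.107 (0.002 to 0.316 over 21 alternatives), and it passed without control condylar cartilage 3 (0.0344). The part of the chondrocyte markers in these values was not tested.

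**Figure D2:**
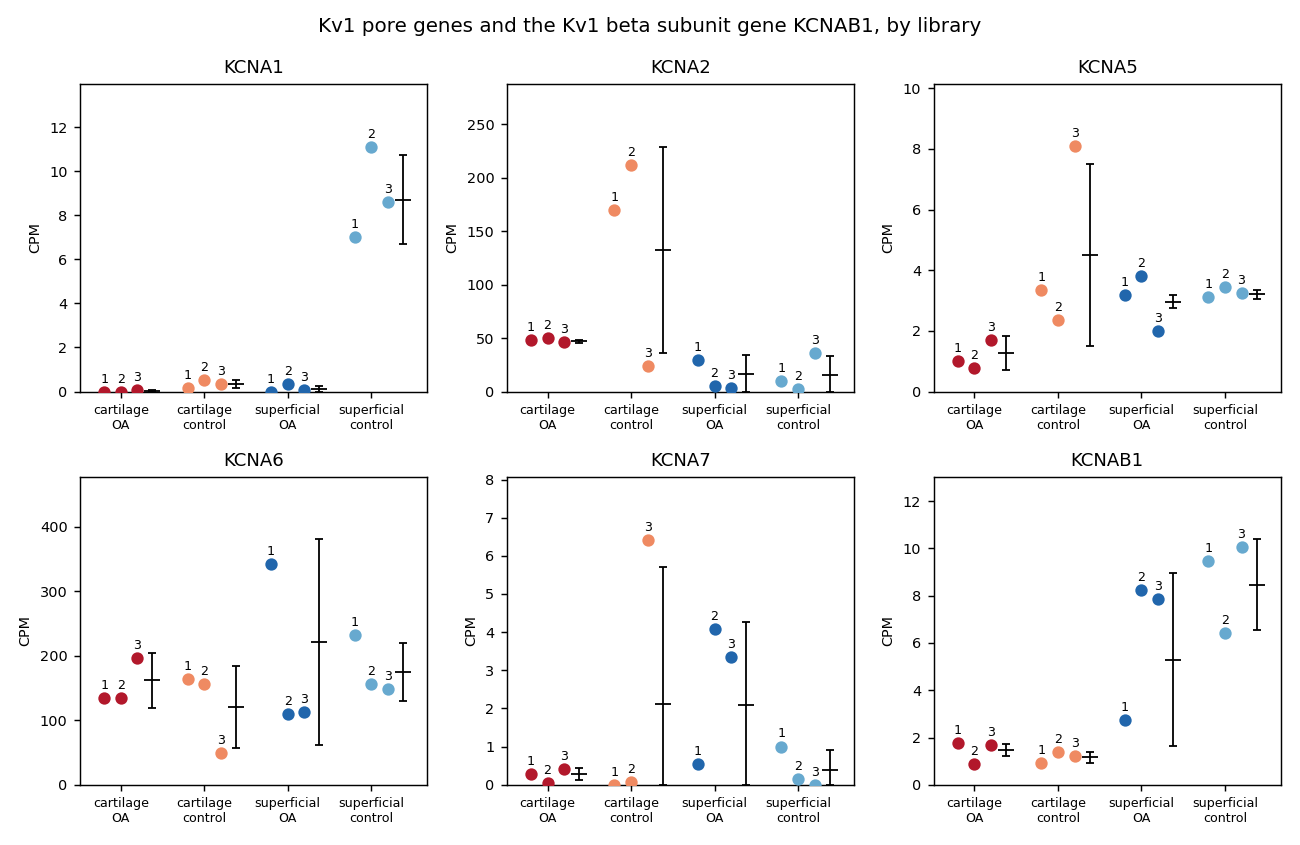
CPM of 5 Kv1 pore genes and KCNAB1 in the OA and control condylar cartilage and the OA and control superficial zone, with 1 numbered point per library and, at the right of each group, the mean ± SD over samples (n = 2 in OA, n = 3 in control; lower ends stop at 0). KCNA1 was at 7.02 to 11.1 CPM in the control superficial zone and at 0.513 CPM or less in each other library, and KCNA6 overlapped between OA and control in the superficial zone.

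KCNA7, a Kv1 gene of skeletal muscle and heart, and KCNC4, the fast-inactivating Kv3 gene, were highest in the 3 libraries with the most skeletal muscle markers. KCNC4 was at 0.828, 18.7 and 17.02 CPM in the OA superficial zone and 2.79, 1.07 and 0.944 CPM in the control superficial zone. In the condylar cartilage it was at 0.167, 0.774 and 0.542 CPM in OA and 0.608, 1.91 and 13.4 CPM in control. Its 3 highest libraries were the 3 highest in skeletal muscle markers, OA superficial zone 2 and 3 and control condylar cartilage 3. The others did not keep that order: OA superficial zone 1, next in muscle markers (177 CPM), had less KCNC4 than control condylar cartilage 2, lowest in them (5.495 CPM). KCNA7 was highest in the same 3 libraries, at 4.09, 3.34 and 6.40 CPM, and at or below 1.00 CPM in the other 9. KCNC4 had opposite signs of OA effect in the 2 zones, and the difference, −5.97 ± 1.83 on the log2 scale, did not pass (edgeR adjusted p = 0.435; 0.0253 to 0.834 over 20 alternatives). In DESeq2 it passed (0.0253), as it did without both libraries that stand apart (0.0447). The part of muscle RNA in these values was not tested.

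**Figure D3:**
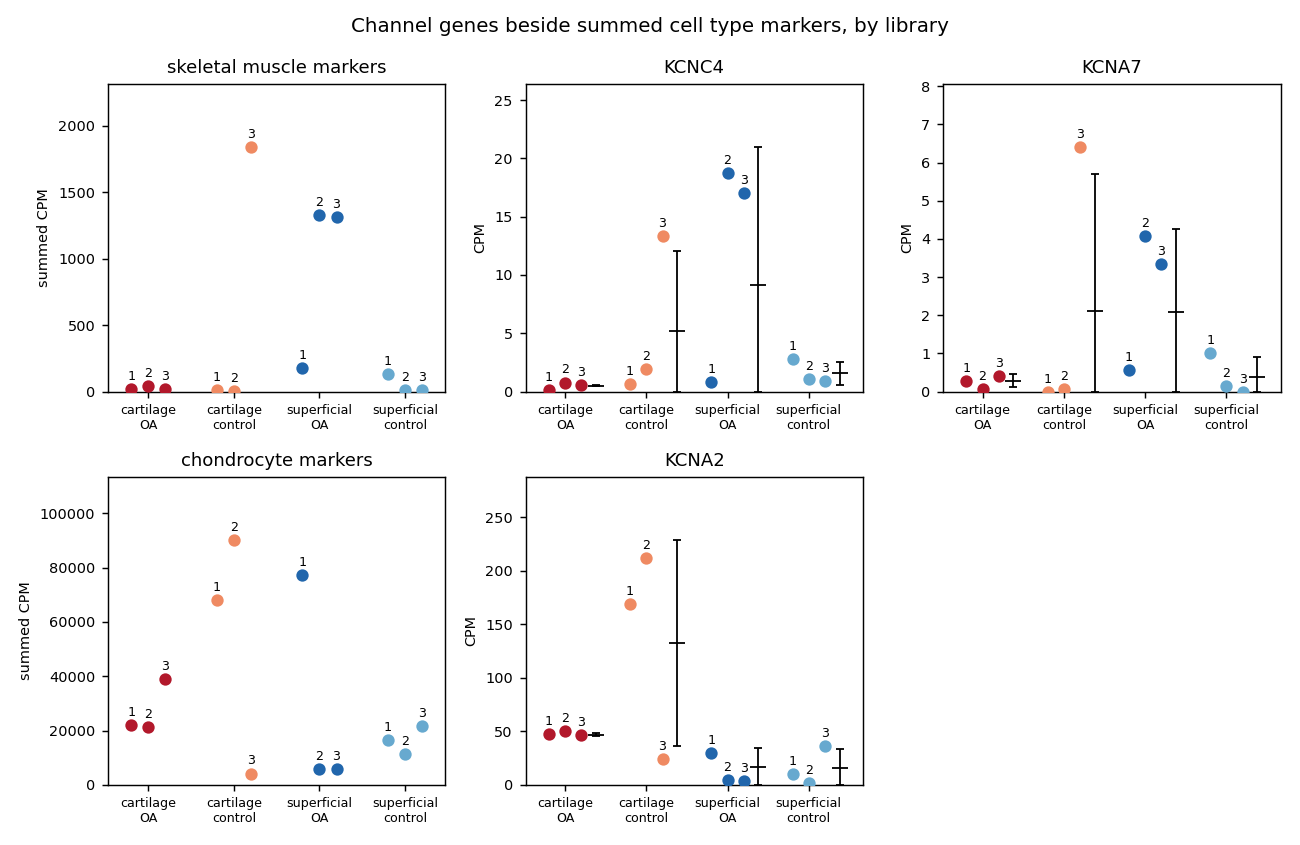
Summed CPM of 6 skeletal muscle and 8 chondrocyte markers beside the CPM of KCNC4, KCNA7 and KCNA2, with 1 numbered point per library (group mean ± SD at the right for the channel genes, n = 2 in OA, n = 3 in control; lower ends stop at 0). The 3 libraries highest in muscle markers (1312 to 1841 CPM) are the 3 highest for KCNC4 and KCNA7, and control condylar cartilage 1 and 2 are highest for KCNA2, while OA superficial zone 1 lies between them in chondrocyte markers with 29.5 CPM of KCNA2.

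Of the other voltage-gated genes, KCNH5, which encodes the ether-a-go-go channel EAG2, differed between the superficial zone groups as KCNA1 did, without overlap. Values were 0.690, 0.467 and 0.431 CPM in the OA superficial zone and 5.68, 6.73 and 7.66 CPM in the control superficial zone. The log2 fold change was −3.61 ± 0.92, not past the test (edgeR adjusted p = 0.18; 0.00625 to 0.964 over 21 alternatives). It passed with 12 separate libraries (0.0383), in DESeq2 (0.00625) and without both libraries that stand apart (0.0447). In control joints KCNH5 was lower in the condylar cartilage, at 0.964 ± 0.973 CPM, than in the superficial zone, at 6.55 ± 0.969 CPM (log2 fold change −2.76 ± 0.75, edgeR adjusted p = 0.0465; 0.000421 to 0.17 over 21 alternatives). That call was lost without control condylar cartilage 1 (0.17) or 2 (0.131), control superficial zone 1 (0.093), 2 (0.131) or 3 (0.122), or OA condylar cartilage 2 (0.0561).

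KCNH2, the ERG1 channel of the cardiac rapid delayed rectifier, went the other way in the condylar cartilage. Values were 3.73, 2.93 and 1.63 CPM in OA and 0.152, 0.220 and 0.786 CPM in control, without overlap. Its log2 fold change was 2.67 ± 0.77 (edgeR adjusted p = 0.184; 0.00991 to 0.501 over 21 alternatives), and it passed with 12 separate libraries (0.0441), in limma-voom (0.00991) and without both libraries that stand apart (0.034). KCND3, an A-type Kv4 pore, was at 6.21, 1.98 and 2.75 CPM in the OA superficial zone and 2.12, 1.22 and 0.839 CPM in the control superficial zone. In the condylar cartilage no library exceeded 0.449 CPM. KCND3 was lower in the condylar cartilage than in the superficial zone in OA joints, at 0.243 ± 0.156 CPM against 4.21 ± 2.65 CPM (SD, n = 2 each; log2 fold change −3.96 ± 0.84, edgeR adjusted p = 0.0225; 0.000978 to 0.167 over 21 alternatives). The call was lost without OA condylar cartilage 3 (0.167) or OA superficial zone 1 (0.061), each of which left 1 OA sample in that zone, in a fit of the OA groups alone (0.0683) and in limma-voom (0.0648). In control joints the same difference was −2.10 ± 0.72 and did not pass (edgeR adjusted p = 0.117).

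The Kv7 genes split by level. KCNQ1, the pore of the cardiac slow delayed rectifier, was at 346, 328 and 308 CPM in the OA condylar cartilage and 762, 563 and 551 CPM in the control condylar cartilage, without overlap. Its log2 fold change of −0.95 ± 0.43 had an edgeR adjusted p of 0.541 (0.00906 to 1 over 21 alternatives), and limma-voom gave the lowest. In the superficial zone KCNQ1 overlapped, at 794, 304 and 316 CPM in OA and 753, 564 and 450 CPM in control. KCNQ5, which carries an M-type current, was at or below 5.14 CPM in all libraries. In control joints it had the higher values in cartilage, at 2.74 to 4.04 CPM in the control condylar cartilage and 0.892 to 1.61 CPM in the control superficial zone (log2 fold change 1.46 ± 0.47, edgeR adjusted p = 0.0912; 0.0383 to 0.275 over 21 alternatives), and passed without OA superficial zone 1 (0.0383).

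As a class, 11 of the 16 voltage-gated genes had a negative log2 fold change in the OA condylar cartilage, with a median of −1.53 beside −0.03 over all genes tested. None passed in edgeR, and 7 had an unadjusted p under 0.05, where 9.25% of all genes did. The sign was negative for 10 of 16 with a median of −1.27 when library totals alone set the scale. Control condylar cartilage 3 was the highest of the 6 cartilage libraries for KCNA5, KCNA7, KCNC1, KCNC4 and KCNH5, among others. With that library left out, 8 of 15 were negative, 3 had an unadjusted p under 0.05 and the median was −0.32. KCNA5 was at 1.00, 0.774 and 1.69 CPM in the OA condylar cartilage against 3.35, 2.34 and 8.09 CPM in control, and KCNC1, a fast Kv3 gene, at 0.892, 0.718 and 1.49 CPM against 2.28, 2.64 and 5.06 CPM. In the superficial zone 10 of 16 were positive in OA, with a median of 0.34 beside 0.05 over all genes. Among the other classes in the OA condylar cartilage, the calcium- or sodium-activated genes had a median of 0.68, the auxiliary genes 0.32 and the inward rectifiers −0.15. With library totals alone the inward rectifiers had 0.10, beside 0.23 over all genes. The superficial zone median of the voltage-gated genes turned negative without OA superficial zone 1 (−0.24 beside 0.004 over all genes). With library totals alone it was −0.05, above the all-gene median of −0.24.

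The inward rectifiers showed no call in any comparison in edgeR. KCNJ2, the strong rectifier Kir2.1 that anchors the resting potential, was at 18.6, 18.8 and 18.4 CPM in the OA condylar cartilage and 20.7, 22.5 and 29.9 CPM in the control condylar cartilage. KCNJ2 in the superficial zone was at 8.0, 28.5 and 28.1 CPM in OA and 10.1, 35.6 and 27.9 CPM in control, so that library 1 was lowest in both groups. KCNJ8 encodes Kir6.1, the pore of an ATP-sensitive channel of pericytes and smooth muscle, and lies beside ABCC9, which encodes its sulfonylurea receptor, in the gene order of mOryCun1.1. KCNJ8 was at 4.74, 5.47 and 5.55 CPM in the OA condylar cartilage and 11.5, 23.5 and 22.5 CPM in the OA superficial zone, without overlap (log2 fold change −1.70 ± 0.50, edgeR adjusted p = 0.0645; 0.00493 to 0.264 over 21 alternatives). It passed in 6 of the 21 alternatives, among them the fit without control condylar cartilage 3 (0.0428). ABCC9 was at 15.1, 16.2 and 12.9 CPM and at 7.87, 31.4 and 37.2 CPM in the same libraries. KCNJ13, KCNJ15, KCNJ5 and KCNJ9 did not exceed 5.24 CPM in any library, and KCNJ5 reached that value only in OA superficial zone 1.

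Both two-pore channel genes had lower values in the OA than in the control condylar cartilage. KCNK12, the THIK2 subunit, was at 2.34, 2.21 and 2.44 CPM in the OA condylar cartilage and 7.60, 10.2 and 15.7 CPM in the control condylar cartilage. KCNK1, the TWIK1 leak channel, was at 2.56, 2.71 and 3.79 CPM in OA and 6.99, 6.23 and 8.54 CPM in control. For each gene the groups did not overlap and every OA library was below every control library, as for 14.8% of all genes tested. Neither passed: the log2 fold change was −2.24 ± 0.57 for KCNK12 (edgeR adjusted p = 0.116; 0.00771 to 0.415 over 21 alternatives) and −1.18 ± 0.47 for KCNK1 (0.457; 0.0241 to 0.702). KCNK12 passed with 12 separate libraries (0.0211) and in DESeq2 (0.00771). KCNK12 in the superficial zone was at 3.31, 1.40 and 2.42 CPM in OA and 3.12, 9.79 and 4.72 CPM in control, and KCNK1 at 12.7, 4.73 and 4.69 CPM in OA and 8.36, 10.6 and 7.34 CPM in control.

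Among the calcium-activated channels KCNMA1 was high throughout. Values were 505, 519 and 619 CPM in the OA condylar cartilage, 742, 643 and 595 CPM in the control condylar cartilage, 346, 392 and 375 CPM in the OA superficial zone and 652, 385 and 383 CPM in the control superficial zone. In OA the cartilage libraries lay above the superficial zone libraries, and in control the zones overlapped. KCNN3, the SK3 channel, stayed between 10.04 and 33.4 CPM in all 12 libraries. KCNN4, the intermediate-conductance channel of red and white blood cells, was at 3.18, 3.09 and 2.85 CPM in the OA condylar cartilage and 1.22, 1.25 and 1.01 CPM in the control condylar cartilage. KCNN4 in the superficial zone was at 8.69, 1.63 and 2.15 CPM in OA and 0.780, 1.84 and 1.57 CPM in control, and OA library 1 had both the highest KCNN4 and the highest sum of neutrophil and marrow markers of that zone (133 CPM). The superficial zone effect was 1.88 ± 0.65 and not past the test (edgeR adjusted p = 0.331; 0.181 to 0.964 over 21 alternatives), and the part of blood and marrow cells in it was not tested.

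KCNN2, the SK2 channel, was lower in the control condylar cartilage, at 0.622 ± 0.318 CPM, than in the control superficial zone, at 3.29 ± 0.866 CPM (SD, n = 3 each; log2 fold change −2.40 ± 0.60, edgeR adjusted p = 0.0326; 0.00218 to 0.131 over 21 alternatives). The call was lost without control condylar cartilage 1 (0.131) or 2 (0.117), control superficial zone 1 (0.0571), 2 (0.13) or 3 (0.0699), or OA superficial zone 3 (0.0505). KCNT2, a sodium-activated channel of the same Slo family as KCNMA1, was higher in the condylar cartilage than in the superficial zone in OA joints. Values were 6.69, 7.18 and 6.84 CPM in the OA condylar cartilage and 1.52, 1.87 and 1.56 CPM in the OA superficial zone, a log2 fold change of 2.08 ± 0.54 (edgeR adjusted p = 0.0457). The OA libraries were tightly grouped, while KCNT2 in control joints was at 6.39, 2.93 and 3.71 CPM in the condylar cartilage and 1.78, 3.52 and 2.52 CPM in the superficial zone, which overlapped. The OA call was lost in 10 of 21 alternatives (0.00354 to 0.343 over all): without control condylar cartilage 1 (0.0568), OA condylar cartilage 3 (0.181), control superficial zone 1 (0.0619), 2 (0.0696) or 3 (0.0775), OA superficial zone 1 (0.108) or 3 (0.0516), without both libraries that stand apart (0.053), with only the groups compared (0.161) and in limma-voom (0.343).

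Among the auxiliary subunits, KCNE4, KCNAB1, KCNIP3 and KCNMB1 passed in at least 1 comparison. KCNE4, a single-pass partner of Kv1 and KCNQ1 channels, was at 3.51, 3.98 and 7.11 CPM in the OA condylar cartilage and 0.304, 0.953 and 0.786 CPM in the control condylar cartilage, without overlap. It rose in OA there, to 5.32 ± 2.33 CPM (n = 2) against 0.666 ± 0.329 CPM in control (n = 3; log2 fold change 2.91 ± 0.51, edgeR adjusted p = 0.0263; 0.000229 to 0.136 over 21 alternatives). In the superficial zone KCNE4 was at 7.04, 8.64 and 8.40 CPM in OA and 8.14, 10.3 and 6.19 CPM in control, which overlapped. The OA condylar cartilage thus reached the range of the superficial zone in library 3 only. The call in the cartilage was lost without control condylar cartilage 1 (0.136) or 2 (0.0919), OA condylar cartilage 3 (0.119), or control superficial zone 1 (0.0596), 2 (0.0555) or 3 (0.0511), and in a fit of the cartilage groups alone (0.117). It held with 12 separate libraries (0.00777), DESeq2 (0.000229) and limma-voom (0.0083).

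In control joints KCNE4 was lower in the condylar cartilage than in the superficial zone, where it averaged 8.04 ± 2.02 CPM (log2 fold change −3.51 ± 0.49, edgeR adjusted p = 0.00197), and this passed in all 21 alternatives (2.75e-08 to 0.0129). Both results rest on the same control cartilage libraries. The difference of its OA effect between zones was 2.98 ± 0.70 and did not pass (edgeR adjusted p = 0.3; 0.0348 to 0.753 over 20 alternatives), though it did in DESeq2 (0.0348). KCNE4 is also known from smooth muscle of vessels. The 6 mural and smooth muscle markers summed to 499 to 660 CPM in the OA condylar cartilage and 890 to 944 CPM in the control condylar cartilage. CSPG4 and NOTCH3 made up most of that sum. NOTCH3, ACTA2, RGS5 and MCAM were each lower in OA without overlap, while CSPG4 and MYH11 overlapped. Also lower in OA, without overlap, was the sum of the endothelial markers, at 246 to 282 CPM against 285 to 491 CPM in control. CDH5, KDR and ROBO4 were each lower without overlap, while PECAM1, TEK and VWF overlapped. The osteoblast and osteocyte sum was lower without overlap, at 1793 to 3147 CPM against 3539 to 8331 CPM. DMP1 and SP7 were each lower without overlap, while BGLAP, PHEX, IBSP and SOST overlapped. The sum of the superficial zone and fibrous markers was lower without overlap too, at 95967 to 115542 CPM in OA and 123740 to 276626 CPM in control. COL1A1 made up most of that sum, while PRG4 was higher in OA (61.4 to 120 CPM, against 18.9 to 40.8 CPM). The erythroid markers summed to 350.2 to 1201 CPM in OA and 6.96 to 40.1 CPM in control, and the neutrophil and marrow markers to 398 to 1298 CPM in OA and 0.733 to 9.21 CPM in control. The lymphocyte markers were at 46.0 to 99.6 CPM in OA and 13.9 to 22.7 CPM in control, and the cell division markers at 321 to 563 CPM in OA and 129 to 272 CPM in control. The part of these cells in the KCNE4 result was not tested.

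KCNIP3, a calcium-binding partner of Kv4 pores, was at 0.292 ± 0.145 CPM in the control condylar cartilage and 2.66 ± 0.565 CPM in the control superficial zone (log2 fold change −3.12 ± 0.67, edgeR adjusted p = 0.015; 0.0011 to 0.0717 over 21 alternatives). That call was lost without control condylar cartilage 1 (0.0717) or 2 (0.0573) or control superficial zone 2 (0.0511). KCND3, a Kv4 pore that KCNIP3 can bind, was also lower in the condylar cartilage by point estimate in both states, as given above. KCNMB1, the smooth muscle BK beta subunit, had the opposite zone difference. Values were 8.97, 12.5 and 8.99 CPM in the control condylar cartilage and 2.79, 2.98 and 1.99 CPM in the control superficial zone, a log2 fold change of 1.97 ± 0.38 (edgeR adjusted p = 0.00879; 0.000124 to 0.053 over 21 alternatives), lost without control superficial zone 3 (0.053). In the control condylar cartilage the mural and smooth muscle markers, mostly CSPG4 and NOTCH3, summed to 890 to 944 CPM. They summed to 1152 to 1973 CPM in the control superficial zone, and their part in the KCNMB1 result was not tested.

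In the OA condylar cartilage KCNMB1 was at 6.02, 6.69 and 4.81 CPM, below all 3 control libraries. KCNMB4, known as the neuronal BK beta subunit, had a like pattern at 2.40, 2.43 and 3.73 CPM in OA and 6.23, 4.98 and 7.42 CPM in control. KCNRG was at 1.93, 5.31 and 5.98 CPM in the OA superficial zone and 6.91, 10.1 and 7.45 CPM in the control superficial zone, without overlap (log2 fold change −1.05 ± 0.48, edgeR adjusted p = 0.448; 0.365 to 0.964 over 21 alternatives). KCNRG lies beside TRIM13 in the gene order of mOryCun1.1, and reads could be shared if these genes overlap. KCNMB3 was sparse, with 0 counts in 4 of the 12 libraries.

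**Figure D4:**
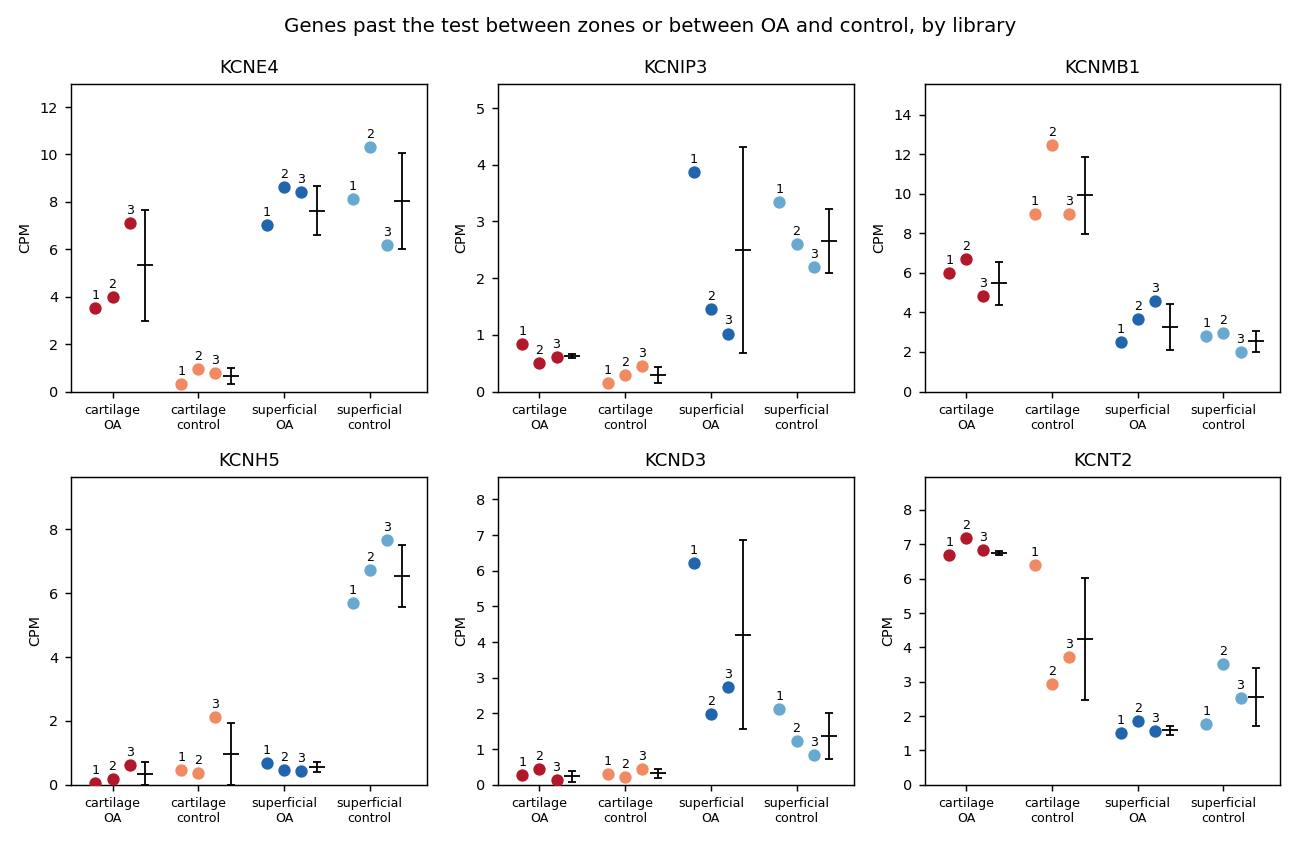
CPM of 6 channel genes past the test in at least 1 comparison, with 1 numbered point per library and the mean ± SD over samples at the right of each group (n = 2 in OA, n = 3 in control; lower ends stop at 0). KCNE4 is at 3.51 to 7.11 CPM in the OA condylar cartilage and 0.304 to 0.953 CPM in the control condylar cartilage, KCNMB1 is highest in the control condylar cartilage, and KCNH5 is highest in the control superficial zone.

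Taken over all 37 genes, the OA superficial zone gave 0 calls in edgeR, where 0.0208% of 14438 genes passed in either direction. An unadjusted p under 0.05 was met by 4 genes, 10.8% beside 11.1% of all genes, and DESeq2 and the fit of 12 separate libraries each called 2, KCNA1 and KCNH5, where they called 1.99% and 1.12% of all genes. The libraries of OA and control did not overlap for 6 genes, 16.2% of the members beside 17.8% of all genes. Of these, 2 were higher in OA (KCNQ5 and KCNJ9; 10.1% of all genes) and 4 lower (7.72%), among them KCNA1, KCNH5 and KCNRG. Without control condylar cartilage 3, 8 of 36 members had an unadjusted p under 0.05, 22.2% beside 13.0% of all genes. Without OA superficial zone 1 or 3 it was 6 of 37, 16.2% beside 8.98% and 11.3% of all genes.

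In the OA condylar cartilage 1 of 37 passed, where 0.866% of all genes did. There 11 had an unadjusted p under 0.05, 29.7% beside 9.25% of all genes, and 17 did not overlap, 45.9% beside 29.8%. Without control condylar cartilage 3, 6 of 36 had an unadjusted p under 0.05, 16.7% beside 10.3% of all genes. Of the 17, 7 were higher in OA (15.0% of all genes) and 10 lower (14.8%). The fit of 12 separate libraries called 3 members (3.03% of all genes), DESeq2 called 2 (2.43%) and limma-voom 8 (10.7%). The difference of the OA effect between zones gave 0 calls among the members and over all genes (0%) in edgeR, with 5 members at an unadjusted p under 0.05 (8.76% of all genes), 0 calls with 12 separate libraries (0.674%) and 2 in DESeq2 (0.803%), KCNE4 and KCNC4. The 5 members became 9 without OA superficial zone 1 (8.24% of all genes), 3 without OA condylar cartilage 3 (5.43%) or control superficial zone 2 (6.18%) and 2 without control superficial zone 3 (5.89%). Between zones in control joints 7 passed, 18.9% beside 7.49% of all genes, with 1 higher in the condylar cartilage and 6 lower, and 12 had an unadjusted p under 0.05 (18.6% of all genes). The 7 calls became 4 without control condylar cartilage 1 or 2 or control superficial zone 2 or 3. Between zones in OA joints 2 passed, 5.41% beside 6.48%, with KCNT2 higher (2.38% of all genes) and KCND3 lower (4.10%) in the condylar cartilage, and 11 had an unadjusted p under 0.05 (27.5%). The 2 calls became 5 without control condylar cartilage 3, 0 without OA condylar cartilage 3, and 1 without control condylar cartilage 1, any control superficial zone library or OA superficial zone 3. The comparisons share libraries. That a gene passed between zones in 1 state and not in the other was tested as the difference of effects above, and none passed in edgeR.

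**Figure D5:**
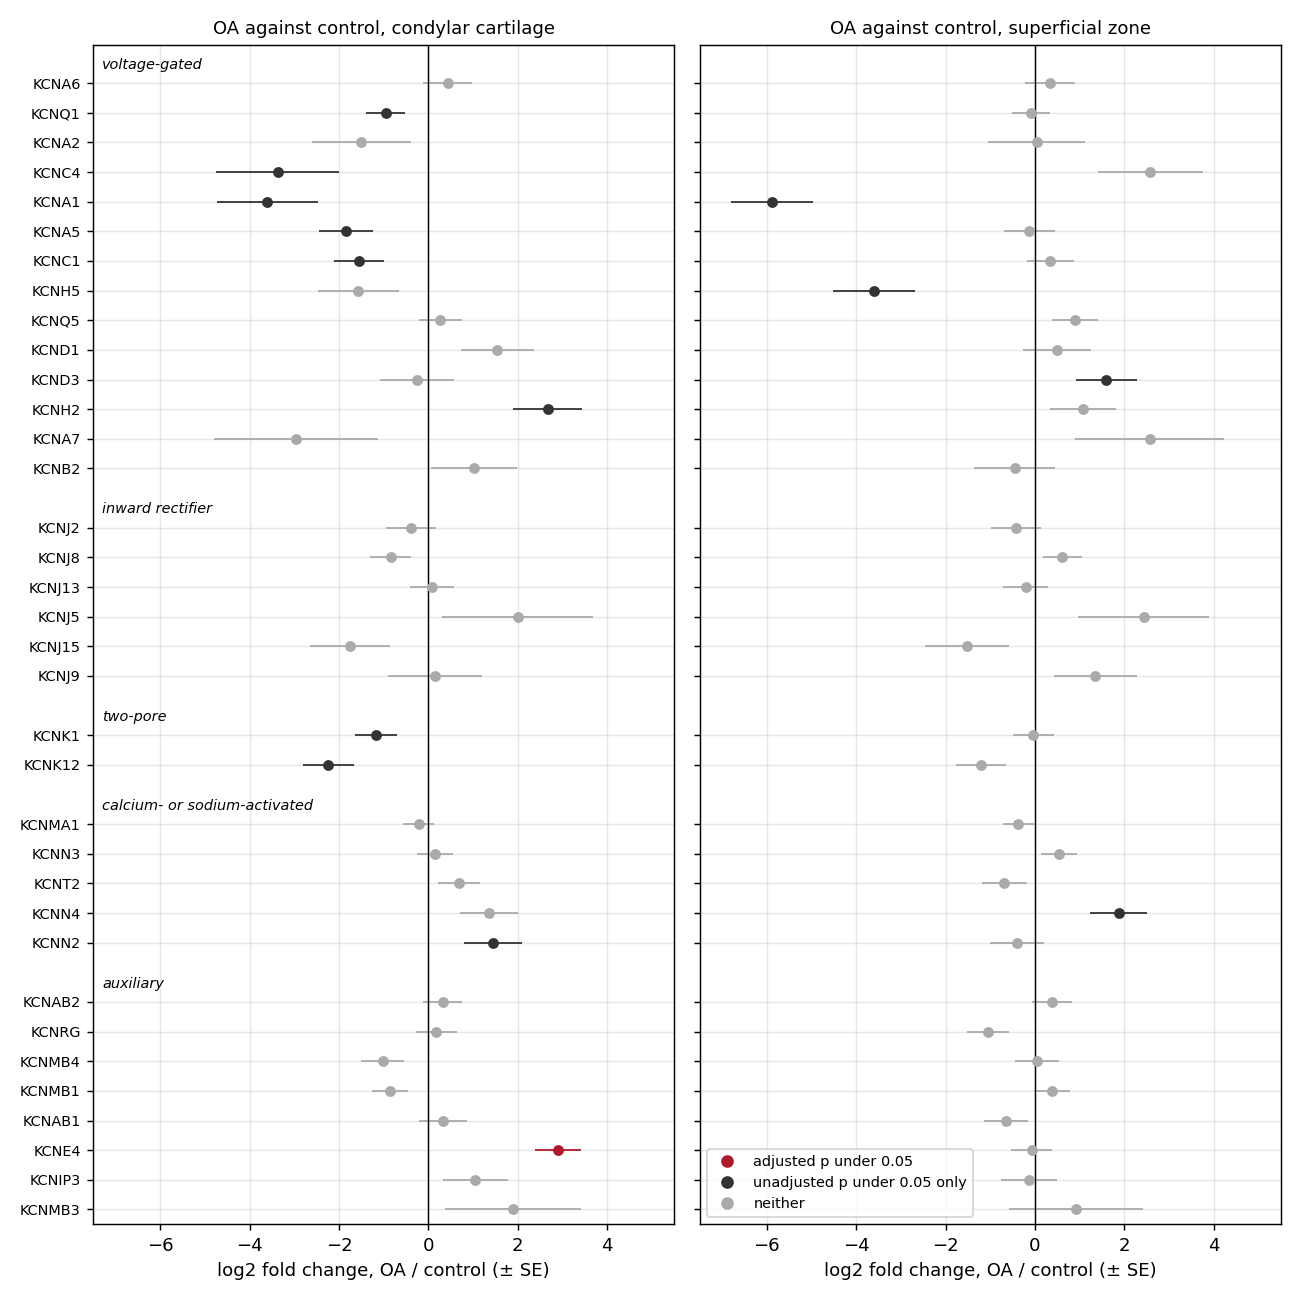
Log2 fold change of OA over control (± SE) for 35 of the 37 genes by class, in the condylar cartilage (left) and the superficial zone (right), coloured by whether the adjusted or only the unadjusted p was under 0.05. KCNE4 in the condylar cartilage is the 1 gene past the adjusted threshold, and KCNA1 in the superficial zone has the lowest value at −5.89.

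A list of 47 genes that work with these channels or carry potassium and related ions was read beside them, and 30 were tested. Its median log2 fold change between OA and control was −0.32 in the condylar cartilage (−0.03 over all genes) and 0.16 in the superficial zone (0.05), and none of the 30 passed in either zone by edgeR. In control joints ATP1B1, a beta subunit of the sodium-potassium pump, was higher in the condylar cartilage at 23.2 ± 7.34 CPM than in the superficial zone at 9.86 ± 0.823 CPM (edgeR adjusted p = 0.0493). DLG4, a scaffold that clusters Kv1 channels, was lower in the condylar cartilage (edgeR adjusted p = 0.00923). It was at 12.3 ± 0.304 CPM there and 29.8 ± 1.41 CPM in the superficial zone. In OA joints 3 were lower in the condylar cartilage: DLG4 again (edgeR adjusted p = 0.0416), LGI1, a secreted ligand of the Kv1 complex (0.0319), and the stretch-activated channel PIEZO2 (0.0292). LGI1 in the OA superficial zone was at 0.828, 7.94 and 6.30 CPM, so that its level there rested on libraries 2 and 3.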

How the data were processed

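The data were 12 bulk RNA libraries (RNeasy Micro extraction, ribosomal RNA depletion, directional NEBNext kit, per the labels' protocols). The deposited table gives estimated counts in whole numbers and TPM for each gene and library. Its header calls the counts both normalised and raw, and since library sums differ they were used as raw. Per the submitters' processing notes, the tools included STAR 2.7.9a and Salmon 1.1.0 and the build was OryCun2.0, with no role given for a tool. TPM is the authors' length-scaled value, used as deposited, and the deposited log2 TPM and the feature lengths, another deposited measure, were not used.

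The main test was the quasi-likelihood test of edgeR 4.0.16, run under R 4.3.3 on counts with TMM scaling and filterByExpr (minimum count 10, leaving 14438 genes), in 1 model of 4 groups and 10 samples. P-values were adjusted by Benjamini and Hochberg's method across every tested gene (threshold 0.05). Each SE came from the fold change and its F statistic. CPM uses TMM-scaled totals. Values per library come from 12 libraries and means ± SD from 10 samples, so they differ slightly. Scripts were tested on simulated data. DESeq2 1.42.0, limma 3.58.1 (voom with sample weights) and other settings were alternatives. Genes named were KCNA1, those past the threshold, the 5 of smallest p in each comparison and the 3 of highest TPM in each class. Others named were chosen after their values were seen. The members and lists were chosen with earlier results of these data known. The labels call the libraries biological replicates but name no animals, so p-values measure only the spread between these samples. Gene order came from the RefSeq table of mOryCun1.1, another assembly than that of the counts, so no coordinates are given. Some genes, 2 of the 37 members among them, are not reported here by name and are not drawn in the figures, though they count in the totals.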

Additional observations from a re-analysis of the deposited data

How the results depend on the processing

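Of 46 pairs of a gene and a comparison, recomputed under the alternatives, none changed sign. Among the recomputed values, 859 kept their side of the threshold, 37 lost the call and 61 gained it. The pairs were KCNA1 and, in each comparison, the 5 genes of smallest p and those with an unadjusted p under 0.05. That choice favours a stable sign. Over all 37 genes, 19 had a positive OA effect in the superficial zone, which became 14 without OA superficial zone 1. The number of channel genes called in the OA superficial zone, 0, was 2 with 12 separate libraries, DESeq2 and only the groups compared, and 3 without both libraries that stand apart. In the OA condylar cartilage, 1, it was 3 with 12 separate libraries, 2 in DESeq2, 8 in limma-voom with sample weights, 0 with only the groups compared and 2 without both libraries. The difference between zones, 0, gave 2 in DESeq2 and 1 without both libraries. Between zones in control, 7, limma-voom gave 13. Between zones in OA, 2, it was 9 with 12 separate libraries, 7 in DESeq2, 5 without both libraries, and 0 when only the groups compared were fitted or limma-voom was used. Leaving out each library in turn gave 0 to 1, 0 to 1, 0 to 0, 4 to 9 and 0 to 5 calls in these comparisons, in that order. The cause of these differences was not tested.

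Libraries of the same number deviated together in some groups and against each other in others (correlations of −0.25 to 0.276), so the numbers were not read as pairs. With the replicate number as a block, and 12 separate libraries, 2, 2, 0, 7 and 8 genes were called, in the same order. With library totals alone as scale, the all-gene median (log2) became −0.24 in the superficial zone, 0.23 in the condylar cartilage, 0.50 for the difference between them, −0.25 between zones in control and 0.25 in OA. Depth limits the 23 genes under 5 TPM, among them KCNA1 outside the control superficial zone.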
